A study of Mus musculus with 8 samples.

Results

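Gene expression was compared between the injured left kidneys of 2 mice pretreated with a mimic of the microRNA miR-5100 and the left kidneys of 2 mice that had a sham operation. The 4 arrays were chosen by their titles from the 8 arrays of the series, and every gene measured above background was included, which gave 21271 genes. The mice are named by group and number in the labels. Mimic 6 and mimic 7 received 5 nmol of the miR-5100 mimic in 200 µl by tail vein, complexed with polyethyleneimine nanoparticles (PEI, a positively charged polymer used to deliver nucleic acids) at an N/P ratio of 6. After 2 days they lost the right kidney, and the left renal vessels were clamped for 45 min and released, which injures the kidney by ischaemia and reperfusion (IRI). Sham 1 and sham 4 had a midline incision of the abdominal wall, no clamp, no nephrectomy and no injection. All left kidneys were taken 24 h after the operation. Strain, age and sex of the mice were not given in the sources used here. Because the mimic mice differ from the sham mice in the injection, the clamp and the loss of the other kidney, these 3 cannot be told apart in this comparison. The other 4 arrays, 2 of IRI without injection and 2 of IRI after a control miRNA on the same carrier, shared the estimate of the spread and are used only where the mimic kidneys are set against them.

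Ischaemia-reperfusion injures first the proximal tubule, the segment that reabsorbs most of the filtered sodium, glucose, amino acids and protein, and that depends on mitochondrial oxidation of fatty acids. Injured proximal tubule cells lose transporters and metabolic enzymes, switch on markers such as Havcr1 (KIM-1) and Lcn2 (NGAL), release chemokines that draw in neutrophils and monocytes, and re-enter the cell cycle during repair. MicroRNAs bind to messenger RNAs mainly through bases 2 to 8 of their 5′ end, the seed, and lower the stability and translation of those targets. The mimic is shown here because it is the agent that sets the mimic mice apart from other injured mice. Its sequence in the study was identical to mature mouse miR-5100 in the RefSeq table of build GRCm38.p6, which lies on the plus strand at chr11:60728698-60728718 and is printed with the seed in capitals.
mmu-miR-5100: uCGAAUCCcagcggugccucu
Among 1738 mature mouse miRNAs in that table, 1 had this seed, which is miR-5100 itself. The array carried 0 probes named for miR-5100, so the level reached in the kidney was not measured.

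The values below are log2 levels: the log2 of an array's processed signal for a gene minus the log2 of the 75th percentile of that array. A level of 0 therefore equals the 75th percentile, and levels of different genes are not compared. A gene was called changed at an adjusted p under 0.05 in limma's moderated test, fitted on all 8 arrays and adjusted by the Benjamini-Hochberg method over the 21271 genes, with 2 mice in each group throughout. The mimic arrays were the dimmest of the 8, with a 75th percentile of 308 and 242 in mimic 6 and mimic 7, against 408 and 476 in sham 1 and sham 4, and 53.2% to 58.8% of the spots of an array were well above background. The mimic mice also differed more from each other than the sham mice did. Log2 differences within a pair of mice had an SD of 0.67 for mimic and 0.33 for sham, and 11.5% of genes differed at least 2-fold between the mimic mice, against 1.57% between the sham mice. As a check of the samples, the 4 Y-linked transcripts tested were well above background on all 4 arrays. Xist was not tested. It did not pass the filter, which asked for a signal well above background in both mice of 1 or more groups. Of the Y-linked transcripts, Kdm5d was called lower in the mimic kidneys (difference -1.73 ± 0.23, adjusted p = 0.00438), also whichever array was left out, while the mean over its 5 probes differed by 0.02. On the slide the mimic and control-miRNA arrays lay in row 2 and the sham and IRI arrays in row 1, so slide row and group cannot be told apart between mimic and sham kidneys or between mimic and IRI kidneys.

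Of the 21271 genes, 5963 (28%) were called between mimic and sham kidneys, 3234 higher (15.2%) and 2729 lower (12.8%), while 9271 had an unadjusted p under 0.05. Counts of list members called between mimic and sham kidneys are to be read against these shares. The change was at least 2-fold for 1937 of the genes called higher (9.11% of all genes) and 1692 of those called lower (7.95%), at least 8-fold for 167 and 86, and at least 32-fold for 24 and 4. The mimic and sham arrays did not overlap for 14634 genes (68.8%), with mimic above for 8323 (39.1%) and below for 6311 (29.7%). The median difference over all genes was 0.11. Scaling each array to its median in place of its 75th percentile moved that median to -0.17 and the split to 1772 higher and 4192 lower. Of the called genes, 190 were well above background on both mimic arrays and neither sham array, and 263 on both sham arrays and neither mimic array. With the brightness of the arrays as a covariate, 5911 of the 5963 called genes (99.1%) had the same sign, the median standard error was 0.38 in place of 0.23, and 109 of them, 71 higher and 38 lower, were still called. Leaving out 1 array at a time changed the count to 7337 without mimic 6, 5111 without mimic 7, 1737 without sham 1 and 1098 without sham 4. In all 4 of these fits 988 genes were called, 513 higher and 475 lower. Of 224 genes picked by the rule for naming genes, without those left out, 190 were called, 100 of them in all 4 of these fits and 17 with brightness as a covariate.

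**Figure D1:**
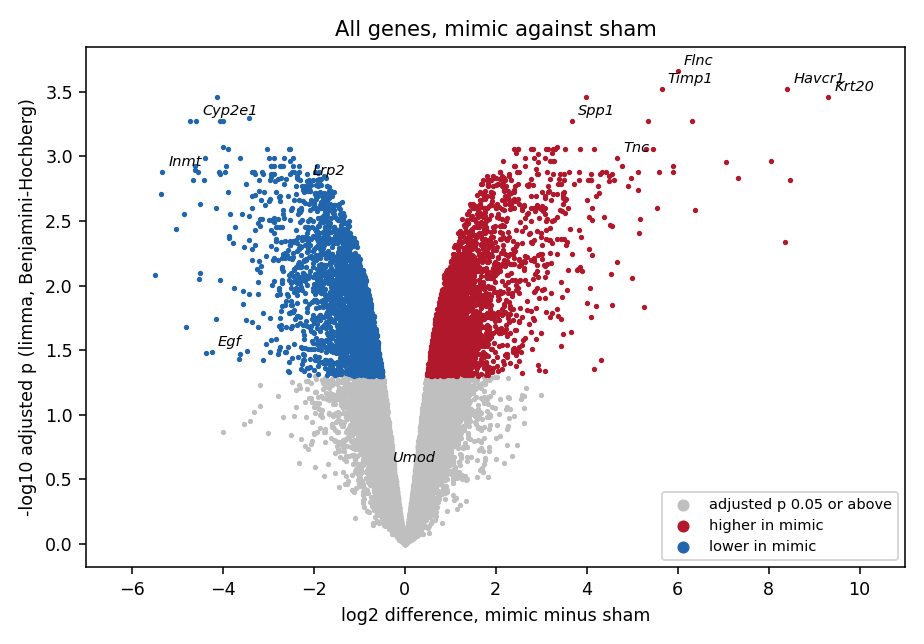
Each point is 1 of 21271 genes, with the log2 difference of mimic minus sham kidneys on the x axis and -log10 of the adjusted p from limma on the y axis. Red points are the 3234 genes called higher and blue points the 2729 called lower in the mimic kidneys, and the gene names mark examples described in the text.

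Among the genes that rose most in the mimic kidneys were the epithelial injury genes Krt20, Havcr1, Lcn2, Timp1, Slpi and Sprr2f, and 8 of the 12 largest rises were well above background on neither sham array. Krt20, a keratin of simple epithelia (probe at chr11:99289776-99289835, mm9), had levels of 5.74 in mimic 6 and 4.41 in mimic 7, against -4.26 in sham 1 and -4.22 in sham 4. The difference was 9.31 ± 0.40 (SE, adjusted p = 0.000344). Havcr1, the phosphatidylserine receptor of injured proximal tubule cells (chr11:46592056-46592115, mm9), had levels of 3.82 and 2.97 in the mimic kidneys, against -5.31 and -4.72 in the sham kidneys. On the sham arrays Havcr1 was not well above background, so the rise is a bound of at least 258-fold (adjusted p = 0.000302). Here and below, such a bound divides the mean of the brighter group by a floor for the dimmer one, set on every array at the lowest signal well above background, or at the gene's measured value where that was greater. Both mimic kidneys lay far above both sham kidneys for these genes, and for Krt20 mimic 6 was the higher of the mimic kidneys.

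Lcn2, a siderophore-binding protein of injured distal tubule and of neutrophils, had levels of 7.49 and 5.85 in the mimic kidneys, against -0.22 and -0.57 in the sham kidneys, a difference of 7.07 ± 0.51 (SE, adjusted p = 0.00110). Timp1, an inhibitor of matrix metalloproteinases, had levels of 3.84 and 3.72 in the mimic kidneys, against -2.08 and -1.66 in the sham kidneys, and the difference was 5.65 ± 0.21 (SE, adjusted p = 0.000302). For Flnc, the actin cross-linker filamin C, levels were 2.34 and 2.32 in the mimic kidneys, against -3.61 and -3.74 in the sham kidneys and the difference 6.00 ± 0.19 (SE, adjusted p = 0.000218), while a 2nd probe of Flnc differed by 1.40. In Flnc and Timp1 the mimic kidneys were within 0.12 of each other, whereas Lcn2 was higher in mimic 6. The other large rises given here were bounds, like Havcr1. Sprr2f, a small proline-rich protein of stratified epithelium, rose at least 83.2-fold (adjusted p = 0.00151), and Vgf, a secreted neuropeptide precursor, at least 72.7-fold (0.00463) by its brighter probe. The 2nd probe of Vgf differed by 1.46 on the log2 scale. Slpi, a secreted protease inhibitor of epithelia, rose at least 176-fold (adjusted p = 0.00108) by its brighter probe, while the other probe, the only one above background on all 8 arrays, differed by 0.28 and was not called (adjusted p = 0.235). The secreted leucine-rich protein Lgi2 rose at least 27.9-fold (adjusted p = 0.00250), the AP-1 subunit Fosl1 at least 12.9-fold (0.000869), and Il1f6, the array's name for interleukin 36 alpha, at least 11.6-fold (0.00131).

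Among the genes that fell most were enzymes and a transporter of the proximal tubule. Cyp2e1, a cytochrome P450 that oxidises small molecules (chr7:147960628-147960687, mm9), had levels of 2.23 in mimic 6 and 2.36 in mimic 7, against 6.96 in sham 1 and 6.81 in sham 4, and it fell by 4.59 on the log2 scale (SE 0.24, adjusted p = 0.000534). Inmt, an N-methyltransferase of indoleamines, had levels of 1.71 and 1.82 in the mimic kidneys, against 6.96 and 7.24 in the sham kidneys, a difference of -5.33 ± 0.43 (SE, adjusted p = 0.00131). Slc7a13, an amino acid transporter of the late proximal tubule, had levels of -1.11 and 0.49 in the mimic kidneys, against 4.64 and 4.78 in the sham kidneys, a difference of -5.02 ± 0.63 (SE, adjusted p = 0.00368). The mimic kidneys agreed closely for Cyp2e1 and Inmt, and mimic 7 retained more Slc7a13 than mimic 6. Also lower in both mimic kidneys were Akr1c14, a steroid reductase, at -4.62 ± 0.34 (SE, adjusted p = 0.00119), Ttc36 at -4.60 ± 0.35 (SE, adjusted p = 0.00128), Clec2h, a C-type lectin, at -4.73 ± 0.25 (SE, adjusted p = 0.000534), and the pseudogene Cyp4b1-ps2 at -4.86 ± 0.55 (SE, adjusted p = 0.00279). Hpd, which degrades tyrosine, differed by -4.67 ± 0.41 (SE, adjusted p = 0.00151) and was well above background on 1 of the 2 mimic arrays. Cyp4b1-ps2, and Mep1b and Smcp given below, were likewise well above background on 1 of the 2 mimic arrays. The size of these falls is therefore approximate. Car5a, a mitochondrial carbonic anhydrase, was well above background on neither mimic array and was at least 11-fold lower (adjusted p = 0.00196). Adgrg4, an adhesion G protein-coupled receptor, was at least 16.1-fold lower (adjusted p = 0.00830) but not called without sham 4 (adjusted p = 0.0607). Mep1b, a brush border protease, differed by -4.82 ± 1.09 (SE, adjusted p = 0.0209) and lost its call without mimic 6, sham 1 or sham 4 (adjusted p = 0.0669, 0.0884 and 0.104). Smcp, a mitochondrial protein of sperm, differed by -4.53 ± 0.77 (SE, adjusted p = 0.00897) and lost its call without sham 1 or sham 4 (adjusted p = 0.0525 and 0.0579).

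**Figure D2:**
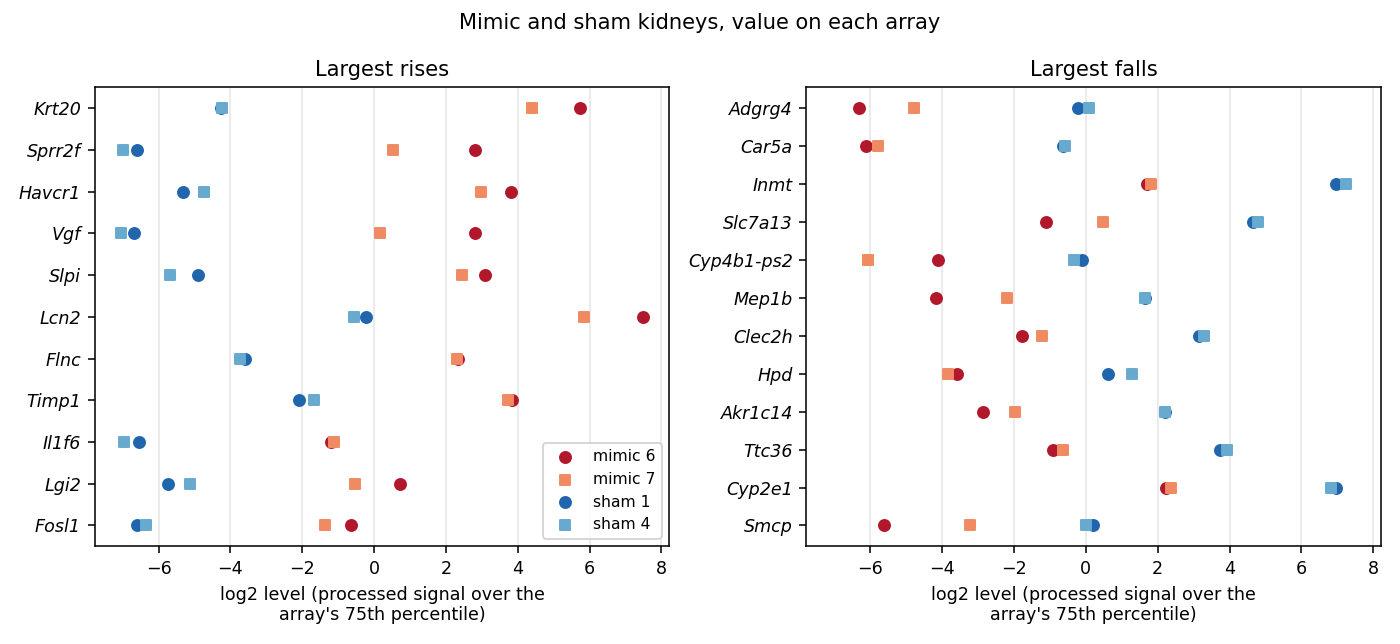
Log2 levels on each array for 11 of the 12 largest rises (left) and the 12 largest falls (right), 1 row per gene, with mimic arrays in red tones and sham arrays in blue tones. Genes were drawn only if the mimic and sham arrays did not overlap. The 23 rows run from Krt20 at 5.74 and 4.41 in mimic against -4.26 and -4.22 in sham kidneys to Adgrg4 at -6.32 and -4.78 in mimic against -0.21 and 0.10 in sham kidneys.

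The start regions of 3 of these genes are printed because they are examples from both ends of the comparison whose windows hold a common core promoter motif. Each is the window of 300 bases around the gene's start, most of it upstream, in the RefSeq table of build GRCm38.p6, 5′ to 3′ on the gene's strand, with matches to the TATA box (TATAAA) and to the AP-1 motif (TGANTCA) in capitals. Krt20 lies on the minus strand at chr11:99438104-99438403, Sprr2f on the plus strand at chr3:92364937-92365236, and Cyp2e1 on the plus strand at chr7:140763569-140763868.
Krt20: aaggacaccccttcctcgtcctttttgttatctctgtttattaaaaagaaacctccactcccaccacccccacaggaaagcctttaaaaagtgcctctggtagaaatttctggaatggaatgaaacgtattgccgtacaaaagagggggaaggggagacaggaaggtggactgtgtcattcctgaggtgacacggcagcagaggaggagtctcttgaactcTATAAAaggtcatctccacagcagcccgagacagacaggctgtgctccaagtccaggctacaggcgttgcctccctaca
Sprr2f: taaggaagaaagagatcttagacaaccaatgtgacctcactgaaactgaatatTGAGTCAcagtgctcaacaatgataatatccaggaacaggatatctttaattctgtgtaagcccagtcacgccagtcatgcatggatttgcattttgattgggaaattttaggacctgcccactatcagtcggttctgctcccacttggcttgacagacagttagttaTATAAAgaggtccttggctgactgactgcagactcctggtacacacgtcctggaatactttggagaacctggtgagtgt
Cyp2e1: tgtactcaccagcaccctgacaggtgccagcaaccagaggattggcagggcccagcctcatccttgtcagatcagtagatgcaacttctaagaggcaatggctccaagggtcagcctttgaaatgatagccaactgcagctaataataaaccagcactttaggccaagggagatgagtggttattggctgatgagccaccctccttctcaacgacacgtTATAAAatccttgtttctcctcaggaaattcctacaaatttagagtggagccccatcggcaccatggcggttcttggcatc
The TATA box began 29 bases before the start of Krt20 and of Sprr2f and 31 bases before the start of Cyp2e1, and the AP-1 match of Sprr2f began 197 bases before its start. Of the 12 largest rises 8 had a window in the table, and 2 of them held TATAAA (Krt20 and Sprr2f) and 2 held TGANTCA (Havcr1 and Sprr2f) on either strand. Of the 12 largest falls 8 had a window, and 2 held TATAAA (Cyp2e1 and Inmt) and 3 held TGANTCA (Adgrg4, Clec2h and Hpd). TATAAA was held by 15.7% and TGANTCA by 8.97% of all 27025 genes with a window. The HNF4 motif CAAAGTCCA was found in the window of Smcp and in 0.555% of all genes. Motifs of NF-kB and of HNF1 that were searched as well were found in none of these genes.

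Tubular injury genes as a group were higher in the mimic kidneys. Of 34 members tested, 28 were called higher and 0 lower, against 15.2% and 12.8% of all genes, and the median difference was 2.83. Spp1 (osteopontin, a secreted matrix phosphoprotein of stressed tubules) had levels of 9.62 and 9.54 in the mimic kidneys, against 5.77 and 6.03 in the sham kidneys, a difference of 3.68 ± 0.18 (SE, adjusted p = 0.000534). Its mimic values were within 0.08 of each other. The summed linear level of the list was 1970 and 1471 in mimic 6 and mimic 7, against 224 and 244 in sham 1 and sham 4. The count was 19 without sham 1 and 20 without sham 4, and 19 members, among them Krt8, Krt18, Krt19, Anxa2, Cd44 and Vcam1, were called whichever of the 4 arrays was left out. With brightness as a covariate 9 were called higher and the median was 3.1.

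Proximal tubule genes were lower. Of 62 tested, 0 were called higher and 47 lower, with a median of -1.94. Lrp2 (megalin), the endocytic receptor that takes up filtered protein, had levels of 4.74 in mimic 6 and 5.08 in mimic 7, against 7.06 in sham 1 and 7.08 in sham 4, and fell by 2.16 on the log2 scale (SE 0.19, adjusted p = 0.00155). For Aadat, an enzyme of tryptophan and lysine breakdown, the difference was -3.62 ± 0.25 (SE, adjusted p = 0.00103), and for Ass1, the argininosuccinate synthase that lets the kidney make arginine, it was -2.88 ± 0.22 (SE, adjusted p = 0.00119). Both mimic kidneys lay below both sham kidneys for each of these. The summed level of the list was 2071 and 2451 in the mimic kidneys, against 5338 and 5247 in the sham kidneys. In bulk tissue fewer cells of a type and less RNA per cell cannot be told apart. The count called lower was 31 without sham 1 and 25 without sham 4, and 25 members, including Cubn, Slc34a1, Slc3a1, Ggt1 and Fbp1, were called whichever array was left out. With brightness as a covariate 2 were called and the median was -2.22.

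In the thick ascending limb, which dilutes the urine, 1 of 19 members was called higher and 4 lower (median -0.75). At 26.3% the share called in either direction was below the 28% of all genes, with 21.1% called lower, against 12.8% of all genes. Egf, the growth factor made there, had levels of 0.12 in mimic 6 and 4.02 in mimic 7, against 6.01 in sham 1 and 6.62 in sham 4, so most of its fall was in mimic 6. Its difference of -4.25 ± 1.11 (SE, adjusted p = 0.0325) was -2.30 without mimic 6 and not called without sham 1 or sham 4 (adjusted p = 0.0993 and 0.156). The 3 probes of Egf had differences of -4.25 to -1.66. With the mean over them Egf differed by -2.68 and was not called (adjusted p = 0.108). Umod (uromodulin), the main urinary protein, had levels of 7.32 and 7.27 in the mimic kidneys, against 7.57 and 7.85 in the sham kidneys and did not pass the test (difference -0.41 ± 0.26, adjusted p = 0.259). Slc12a1, the loop diuretic-sensitive cotransporter, had levels of 1.26 in mimic 6 and 3.19 in mimic 7, against 3.73 in sham 1 and 4.15 in sham 4 and did not pass either (adjusted p = 0.0692). Of the 3 genes that follow, Cldn14 was well above background on only 1 sham array. Cldn10, a claudin of paracellular sodium transport, differed by -1.43 ± 0.29 (SE, adjusted p = 0.0144), Cldn14, a claudin that limits calcium transport, by 1.24 ± 0.26 (SE, adjusted p = 0.0173), and the potassium channel Kcnj16 by -0.76 ± 0.15 (SE, adjusted p = 0.0133), and each of these 3 lost its call without sham 1 or sham 4, at adjusted p of 0.0622 to 0.104. Thick ascending limb members called were 13 without mimic 7 and 0 without either sham array.

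Distal convoluted and connecting tubule genes had 0 of 21 members called higher and 7 lower (33.3%, against 12.8% of all genes called lower, median -0.58). Calb1, the cytosolic calcium buffer calbindin, had levels of 3.14 and 3.33 in the mimic kidneys, against 5.05 and 5.17 in the sham kidneys, a difference of -1.87 ± 0.25 (SE, adjusted p = 0.00428). For Pvalb (parvalbumin) the levels were -1.03 and 0.15 in the mimic kidneys, against 2.63 and 2.36 in the sham kidneys, a difference of -2.93 ± 0.41 (SE, adjusted p = 0.00493), and for the transcription factor Emx1 the difference was -1.23 ± 0.15 (SE, adjusted p = 0.00317). Of principal cell genes, 1 of 18 was called higher (5.56%, against 15.2% of all genes) and 4 lower (22.2%, against 12.8%). In either direction their share (27.8%) was at the 28% of all genes. The lower ones were the sodium channel subunit Scnn1g at -1.50 ± 0.19 (SE, adjusted p = 0.00414), the water channels Aqp3 at -1.61 ± 0.23 (SE, adjusted p = 0.00572) and Aqp2 at -1.09 ± 0.22 (SE, adjusted p = 0.0140), and Hsd11b2, which inactivates cortisol and corticosterone, at -1.87 ± 0.30 (SE, adjusted p = 0.00771). Of these, Scnn1g was called whichever array was left out, while Aqp3 and Hsd11b2 were not called without sham 4 (adjusted p = 0.0529 and 0.0628) and Aqp2 without sham 1 or sham 4 (adjusted p = 0.0735 and 0.0945). Intercalated cells, which secrete acid or base, had 0 of 18 members called higher and 5 lower (27.8%, against 12.8% of all genes called lower). Car12, a membrane carbonic anhydrase, had levels of 0.45 and 0.57 in the mimic kidneys, against 1.89 and 2.03 in the sham kidneys (difference -1.45 ± 0.19, adjusted p = 0.00410). The chloride/bicarbonate exchanger Slc26a4 (pendrin) differed by -1.22 ± 0.17 (SE, adjusted p = 0.00540) and the proton pump subunit Atp6v1b1 by -1.21 ± 0.17 (SE, adjusted p = 0.00565), both not called without sham 4 (adjusted p = 0.0556 and 0.0566). Members called were 4 without sham 1 and 4 without sham 4 for the distal convoluted and connecting tubule, and 9 without mimic 7, 3 without sham 1 and 1 without sham 4 for principal cells. For intercalated cells they were 10 without mimic 7, 3 without sham 1 and 1 without sham 4. For the distal lists the mimic mice parted, with medians of -1.0 in mimic 6 and -0.10 in mimic 7 for the distal convoluted and connecting tubule, -1.16 and -0.15 for intercalated cells, and -0.72 and 0.36 for principal cells.

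Podocyte genes, which build the filtration slit, were called in both directions, 3 of 25 higher and 2 lower, below the 15.2% and 12.8% of all genes, with a median of -0.04. Actn4, the podocyte actinin, differed by 0.69 ± 0.17 (SE, adjusted p = 0.0248), the adaptor Cd2ap by 0.63 ± 0.18 (SE, adjusted p = 0.0389) and Col4a4, a chain of the glomerular basement membrane, by -0.96 ± 0.20 (SE, adjusted p = 0.0154). Endothelial genes had 3 of 28 members called higher and 0 lower, below the 28% of all genes called in either direction, and a median of 0.27. Nos3, the endothelial nitric oxide synthase, differed by 1.18 ± 0.22 (SE, adjusted p = 0.0121) and Ramp2, the adrenomedullin receptor partner, by 0.97 ± 0.20 (SE, adjusted p = 0.0166). With the mean over its probes, Ramp2 differed by 0.68 and was not called (adjusted p = 0.0533). Pecam1, the junctional protein CD31, had levels of -1.95 and -2.05 in the mimic kidneys, against -2.73 and -2.40 in the sham kidneys and did not pass the test (adjusted p = 0.0559). Without sham 1, and without sham 4, 0 members of either list were called, and without mimic 6 the counts were 3 podocyte and 7 endothelial genes. Actn4 was also not called without mimic 7 (adjusted p = 0.0547), nor Cd2ap without mimic 6 (adjusted p = 0.0661).

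**Figure D3:**
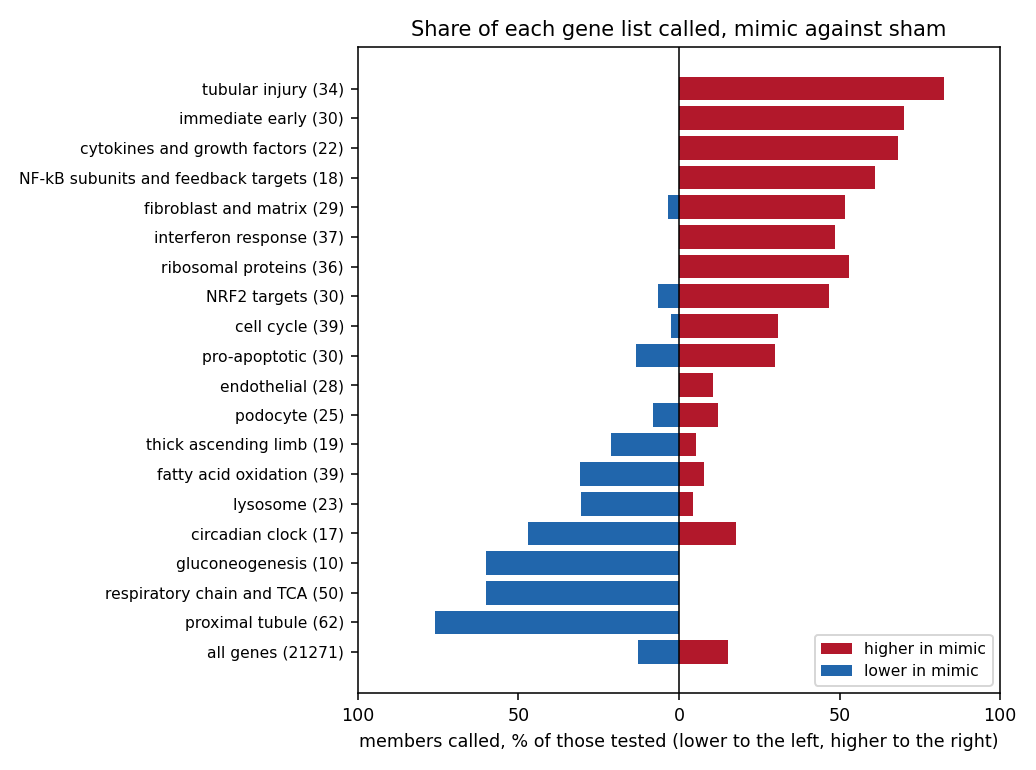
Bars give the share of each list's tested genes called higher (to the right) and lower (to the left) in mimic than in sham kidneys, with the number tested in brackets. Tubular injury genes (82.4% higher) and proximal tubule genes (75.8% lower) lie at opposite ends, and all genes (15.2% higher, 12.8% lower) are at the bottom.

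Many cytokine genes were higher in the mimic kidneys. Of 22 cytokine and growth factor genes tested, 15 were called higher and 0 lower (median 1.95). Csf1, the macrophage growth factor, had levels of 2.02 and 1.84 in the mimic kidneys, against -1.19 and -1.15 in the sham kidneys, a difference of 3.1 ± 0.19 (SE, adjusted p = 0.000869). Il6, which drives the acute phase response, had levels of -1.84 in mimic 6 and -3.91 in mimic 7, against -6.76 in sham 1 and -7.14 in sham 4. Il6 was well above background on 1 mimic array and no sham array. The 3.54-fold ratio of its mimic mean to the sham floor is therefore approximate and not a bound. Il6 was called higher (adjusted p = 0.0105). It was not called without sham 1 or sham 4 (adjusted p = 0.0505 and 0.0726). Il1rn, the decoy antagonist of the interleukin 1 receptor, was at least 5.33-fold higher (adjusted p = 0.00138), and Clcf1, a gp130 ligand, at least 4.43-fold (0.00138). Tnf, with levels of -1.78 and -1.36 in the mimic kidneys, against -1.28 and -1.46 in the sham kidneys, did not pass the test (adjusted p = 0.535). The count was 8 without sham 1 and 8 without sham 4, and with brightness as a covariate 2 were called.

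Among 21 chemokines 8 were called higher and 3 lower. Cxcl1, which attracts neutrophils, had levels of 1.61 and 1.87 in the mimic kidneys, against -3.18 and -3.62 in the sham kidneys, a difference of 5.13 ± 0.41 (SE, adjusted p = 0.00131). Ccl2, which attracts monocytes, had levels of 0.67 in mimic 6 and -0.07 in mimic 7, against -2.21 in sham 1 and -2.33 in sham 4, and its difference of 2.57 ± 0.77 (SE, adjusted p = 0.0475) was not called when any 1 of the 4 arrays was left out (adjusted p of 0.0873 to 0.185). Cx3cl1 (fractalkine) differed by 1.30 ± 0.25 (SE, adjusted p = 0.0134) and Ccl12 by 2.82 ± 0.48 (SE, adjusted p = 0.00885), whereas Cxcl12, a retention signal for haematopoietic cells, differed by -1.22 ± 0.21 (SE, adjusted p = 0.00874). Of these, Cxcl1 alone was called without sham 4. Chemokines called were 2 without sham 1 and 1 without sham 4.

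The NF-kB list, holding subunits and the genes that they switch on as feedback, had 11 of 18 members called higher and 0 lower (median 0.90). Fitted with brightness as a covariate, 0 were called at a median of 1.09. Nfkb2, the p100/p52 subunit, had levels of 2.86 and 3.01 in the mimic kidneys, against 0.76 and 0.69 in the sham kidneys, a difference of 2.21 ± 0.21 (SE, adjusted p = 0.00181). Relb differed by 2.02 ± 0.21 (SE, adjusted p = 0.00234), although 1 of its 3 probes had a difference of -0.24. Birc3, an inhibitor of cell death, differed by 1.76 ± 0.20 (SE, adjusted p = 0.00289), and Icam1, the adhesion receptor for leukocytes, by 1.94 ± 0.24 (SE, adjusted p = 0.00351) with levels of 3.11 and 3.14 in the mimic kidneys, against 1.07 and 1.29 in the sham kidneys. These 4 genes were called whichever array was left out, and the list's count was 6 without sham 1 and 6 without sham 4.

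Interferon response genes had 18 of 37 members called higher and 0 lower (median 0.77), and 0 called with brightness as a covariate (median 0.77). Isg20, an antiviral RNA exonuclease, had levels of 1.69 and 1.65 in the mimic kidneys, against -0.81 and -1.13 in the sham kidneys, a difference of 2.64 ± 0.19 (SE, adjusted p = 0.00119). Ifitm3, which blocks virus entry at endosomes, had levels of 3.94 and 3.73 in the mimic kidneys, against 2.55 and 2.49 in the sham kidneys, a difference of 1.32 ± 0.17 (SE, adjusted p = 0.00386). Both were called whichever array was left out, while Irf7 (difference 1.32 ± 0.20, adjusted p = 0.00623) and Isg15 (difference 1.61 ± 0.24, adjusted p = 0.00640) were not called without sham 4 (adjusted p = 0.0586 and 0.0532). Interferon members called were 8 without sham 1 and 2 without sham 4. Of 15 sensors of foreign RNA, 5 were called higher and 1 lower. Ddx58, which encodes the cytosolic sensor RIG-I, had levels of 2.51 and 2.15 in the mimic kidneys, against 0.99 and 1.06 in the sham kidneys (difference 1.31 ± 0.18, adjusted p = 0.00508). Dhx58, its relative LGP2, differed by 1.70 ± 0.26 (SE, adjusted p = 0.00660), Eif2ak2, the kinase PKR, by 1.28 ± 0.21 (SE, adjusted p = 0.00768), and Myd88, the Toll-like receptor adaptor, by 0.80 ± 0.19 (SE, adjusted p = 0.0232), the last 2 not called without sham 1 or sham 4 (adjusted p of 0.0533 to 0.140). Sensors called were 4 without mimic 7, 2 without sham 1 and 2 without sham 4.

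Markers of leukocytes were called in both directions. Of 14 neutrophil genes tested (9 more on the array did not pass the filter), 8 were called higher and 0 lower, with a median of 1.62. S100a8 and S100a9 form the neutrophil protein calprotectin. S100a8 had levels of 0.72 and -0.33 in the mimic kidneys, against -3.52 and -3.19 in the sham kidneys (difference 3.55 ± 0.36, adjusted p = 0.00214), and S100a9 of 2.53 and 1.61 in the mimic kidneys, against -0.80 and -1.03 in the sham kidneys (difference 2.98 ± 0.39, adjusted p = 0.00422). Il1r2, a decoy receptor of interleukin 1, was at least 5.90-fold higher (adjusted p = 0.00488). Mpo, Ltf, Ngp and Mmp9, granule genes of neutrophils, were among those that did not pass the filter and were not tested. The summed level of the list was 259 and 160 in the mimic kidneys, against 54.1 and 48.2 in the sham kidneys. Lcn2, which is also in the tubular injury list, made up 180 and 57.8 of it in the mimic kidneys, and without Lcn2 the sum was 79.2 and 102 in the mimic kidneys, against 53.3 and 47.5 in the sham kidneys.

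In the macrophage and monocyte list 5 of 22 members were called higher (22.7%, against 15.2% of all genes) and 3 lower (13.6%, against 12.8%). Cd68, a lysosomal glycoprotein of phagocytes, had levels of 2.42 and 2.23 in the mimic kidneys, against -0.68 and -1.15 in the sham kidneys (difference 3.24 ± 0.21, adjusted p = 0.000936), and Cd14, the co-receptor for lipopolysaccharide, of 2.14 and 2.04 in the mimic kidneys, against -0.89 and -1.16 in the sham kidneys (difference 3.12 ± 0.25, adjusted p = 0.00131). Csf1r, the receptor for Csf1, had levels of 2.76 and 2.97 in the mimic kidneys, against 3.84 and 3.47 in the sham kidneys, a difference of -0.79 ± 0.20 (SE, adjusted p = 0.0311) that was not called without mimic 6, sham 1 or sham 4 (adjusted p of 0.0688 to 0.164). Cd83 differed by -1.37 ± 0.23 (SE, adjusted p = 0.00826) and Ms4a7 by 1.17 ± 0.26 (SE, adjusted p = 0.0212), both not called without sham 4 (adjusted p = 0.0677 and 0.135). Cd68 and Cd14 thus differed in sign from Csf1r within the same marker list, of which 4 without sham 1 and 2 without sham 4 were called. With the mean over its probes, Csf1r differed by -0.46 and was not called (adjusted p = 0.115). Cd163, Msr1, Arg1 and Timd4 did not pass the filter and were not tested.

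Of 15 MHC class II and dendritic cell genes, 0 were called higher and 3 lower. This share of 20% compares with 12.8% of all genes called lower and 28% called in either direction. H2-Aa, a class II chain that presents peptides to CD4 T cells, had levels of -1.47 and -1.72 in the mimic kidneys, against 0.69 and 0.36 in the sham kidneys (difference -2.12 ± 0.26, adjusted p = 0.00362). H2-Eb1 had levels of 2.10 in mimic 6 and 3.59 in mimic 7, against 4.68 in sham 1 and 4.50 in sham 4 (difference -1.74 ± 0.49, adjusted p = 0.0395), differed by -1.0 without mimic 6 and was not called without mimic 6, sham 1 or sham 4 (adjusted p of 0.0773 to 0.145). The lectin Cd209a was well above background on neither mimic array and was at least 2.66-fold lower (adjusted p = 0.00591), but not called after normexp background correction (adjusted p = 0.127). In the T and NK cell list 2 of 22 members were called higher and 6 lower, with 3 called without mimic 6, 1 without sham 1 and 1 without sham 4. Prf1 (perforin) differed by 0.96 ± 0.18 (SE, adjusted p = 0.0120), and Cd5, a T cell surface receptor, was at least 1.65-fold lower (adjusted p = 0.0134), both not called without sham 1 or sham 4 (adjusted p of 0.0505 to 0.101). Cd5 turned to 0.11 after normexp background correction. Klrb1c (NK1.1) was at least 1.67-fold lower (adjusted p = 0.0224) and not called without mimic 6, mimic 7 or sham 1 (adjusted p of 0.0600 to 0.0930), nor after normexp correction (adjusted p = 0.847). Of 9 B cell genes, 2 were called higher and 0 lower (22.2%, against 28% of all genes called in either direction and 15.2% called higher). They were Cd22 (difference 1.09 ± 0.32, adjusted p = 0.0429) and Ebf1 (difference 0.80 ± 0.24, adjusted p = 0.0458), neither called without mimic 7, sham 1 or sham 4 (adjusted p of 0.112 to 0.206), nor Ebf1 without mimic 6 (adjusted p = 0.0543). With the mean over its probes, Ebf1 differed by 0.48 and was not called (adjusted p = 0.13). Cd8a and Ncr1, markers of cytotoxic T and NK cells, did not pass the filter and were not tested.

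Matrix and fibroblast genes were higher in the mimic kidneys. Of 29 tested, 15 were called higher and 1 lower, with a median of 1.23. Col1a1, the main chain of fibrillar collagen I, had levels of 3.25 and 4.11 in the mimic kidneys, against 0.24 and 0.31 in the sham kidneys, a difference of 3.41 ± 0.38 (SE, adjusted p = 0.00258). Col5a1, which regulates the width of collagen fibrils, had levels of 0.93 and 1.21 in the mimic kidneys, against -1.46 and -1.41 in the sham kidneys (difference 2.51 ± 0.20, adjusted p = 0.00131). Both mimic kidneys were above both sham kidneys for these, with mimic 7 the higher of the pair. Tnc (tenascin C), a matrix protein of wounds, was at least 16.8-fold higher (adjusted p = 0.00103), with levels of -0.31 and -0.94 in the mimic kidneys, against -4.88 and -5.71 in the sham kidneys. Postn (periostin) had levels of -2.13 and -2.76 in the mimic kidneys, against -4.66 and -4.62 in the sham kidneys, a difference of 2.20 ± 0.23 (SE, adjusted p = 0.00218), and was well above background on 1 sham array. The count was 9 without sham 1 and 8 without sham 4, and Col1a1, Col1a2, Col3a1, Col5a1, Pdgfrb, Postn, Sparc and Tnc were called whichever array was left out. The summed level of the list was 386 and 334 in the mimic kidneys, against 112 and 137 in the sham kidneys. Of the 29 members, 0 were called with brightness as a covariate, at a median of 1.46.

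Immediate early genes, the transcription factors and phosphatases that answer first to a stimulus, were higher 24 h after the operation. Of 30 tested, 21 were called higher and 0 lower (median 1.45). Jun had levels of 5.09 and 4.67 in the mimic kidneys, against 2.66 and 2.53 in the sham kidneys, a difference of 2.29 ± 0.19 (SE, adjusted p = 0.00141). Cebpb, a factor of the acute phase response, had levels of 3.48 and 3.36 in the mimic kidneys, against 1.72 and 1.77 in the sham kidneys (difference 1.67 ± 0.15, adjusted p = 0.00165). Maff, a small Maf factor, differed by 3.34 ± 0.39 (SE, adjusted p = 0.00294). No probe of Maff was well above background on all 8 arrays, so the size of its rise is approximate. Fos, Fosl2, Egr2, Myc, Nr4a1, Dusp5 and Btg2 were also among the 11 members called whichever array was left out, and the count was 17 without sham 1 and 12 without sham 4.

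Targets of NRF2, the factor that answers to oxidants, had 14 of 30 members called higher and 2 lower (median 0.92). Fitted with brightness as a covariate, 0 were called at a median of 1.01. Hmox1, which degrades haem, had levels of 5.60 in mimic 6 and 4.52 in mimic 7, against 2.20 in sham 1 and 1.85 in sham 4, a difference of 3.04 ± 0.34 (SE, adjusted p = 0.00264). Mt2, a metal-binding thiol protein, had levels of 8.85 and 7.74 in the mimic kidneys, against 4.78 and 4.85 in the sham kidneys (difference 3.48 ± 0.35, adjusted p = 0.00209). Cbr3, a carbonyl reductase, differed by 4.20 ± 0.42 (SE, adjusted p = 0.00201) and its relative Cbr1 by 1.57 ± 0.19 (SE, adjusted p = 0.00321). Mimic 6 was above mimic 7 in Hmox1, Mt2 and Cbr3, and all 4 genes were called whichever array was left out. Of p53 targets 11 of 27 were called higher and 3 lower. Trp53 itself had levels of 1.71 and 1.96 in the mimic kidneys, against 0.17 and -0.28 in the sham kidneys (difference 1.89 ± 0.24, adjusted p = 0.00383), the death receptor Tnfrsf10b differed by 1.92 ± 0.19 (SE, adjusted p = 0.00206), Phlda3, an inhibitor of AKT, by 1.73 ± 0.20 (SE, adjusted p = 0.00281), and Btg2, which slows proliferation, by 2.01 ± 0.29 (SE, adjusted p = 0.00532). NRF2 targets called were 7 without sham 1 and 6 without sham 4, and p53 targets 8 without sham 1 and 5 without sham 4.

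Several genes of DNA replication were higher in the mimic kidneys. Of 39 cell cycle genes tested, 12 were called higher (30.8%, against 15.2% of all genes) and 1 lower (2.56%, against 12.8%). Their median was 0.60 in mimic 6 and 1.66 in mimic 7. Uhrf1, which maintains DNA methylation at replication forks, had levels of 1.89 in mimic 6 and 2.53 in mimic 7, against -1.24 in sham 1 and -1.04 in sham 4, a difference of 3.34 ± 0.33 (SE, adjusted p = 0.00196). Mcm3, part of the replicative helicase, had levels of 1.67 in mimic 6 and 2.78 in mimic 7, against -0.56 in sham 1 and -0.22 in sham 4 (difference 2.62 ± 0.42, adjusted p = 0.00752), and was not called without sham 1 (adjusted p = 0.0501). Hells, a chromatin remodeller, was at least 4.67-fold higher (adjusted p = 0.00643). The checkpoint kinase Chek1 differed by 2.50 ± 0.37 (SE, adjusted p = 0.00619) and was not called without sham 4. No probe of Chek1 was well above background on all 8 arrays, so the size of its rise is approximate. Cell cycle genes called were 7 without mimic 7, 5 without sham 1 and 4 without sham 4.

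Heat shock genes were called in both directions, 5 of 23 higher (21.7%, against 15.2% of all genes) and 4 lower (17.4%, against 12.8%). The small heat shock proteins Hspb1 and Cryab stabilise unfolded proteins. Hspb1 had levels of 5.88 and 5.58 in the mimic kidneys, against 2.57 and 2.73 in the sham kidneys (difference 3.08 ± 0.31, adjusted p = 0.00204), and Cryab of 6.66 and 6.95 in the mimic kidneys, against 4.84 and 4.49 in the sham kidneys (difference 2.14 ± 0.22, adjusted p = 0.00218). The chaperone Hsp90aa1 differed by 1.09 ± 0.19 (SE, adjusted p = 0.00992) and Hspa1b, an inducible HSP70, by 1.52 ± 0.29 (SE, adjusted p = 0.0120), both not called without sham 4 (adjusted p = 0.0844 and 0.0878), nor Hspa1b without sham 1 (adjusted p = 0.0533). In the unfolded protein response 5 of 31 members were called higher (16.1%, against 15.2% of all genes) and 6 lower (19.4%, against 12.8%). Herpud1, which helps to clear proteins from the endoplasmic reticulum, had levels of 2.66 and 2.92 in the mimic kidneys, against 4.74 and 5.07 in the sham kidneys (difference -2.11 ± 0.20, adjusted p = 0.00172), and the co-chaperone Dnajc3 differed by -1.28 ± 0.24 (SE, adjusted p = 0.0120). By contrast, Trib3 differed by 3.13 ± 0.51 (SE, adjusted p = 0.00780) and Asns, the asparagine synthetase, by 2.96 ± 0.56 (SE, adjusted p = 0.0125), both known as targets of the factor ATF4. Of these, Dnajc3 was not called without sham 1 or sham 4, Trib3 without sham 1 and Asns without sham 4 (adjusted p of 0.0501 to 0.0838). Heat shock genes called were 3 without sham 1 and 2 without sham 4, and unfolded protein response genes 7 without mimic 7, 3 without sham 1 and 2 without sham 4.

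Cell death genes were called in both directions. Of 30 pro-apoptotic genes 9 were called higher (30%, against 15.2% of all genes) and 4 lower (13.3%, against 12.8%), with a median of 0.02. Bak1, which opens the outer mitochondrial membrane, had levels of 3.27 and 2.67 in the mimic kidneys, against 1.05 and 0.89 in the sham kidneys (difference 2.00 ± 0.22, adjusted p = 0.00252). Its relative Bax differed by 0.60 ± 0.15 (SE, adjusted p = 0.0295) and the initiator caspase Casp8 by 0.75 ± 0.20 (SE, adjusted p = 0.0338), but neither was called without sham 1 or sham 4 (adjusted p of 0.101 to 0.196), nor Bax without mimic 7 (0.0514) or Casp8 without mimic 6 (0.0602). With the mean over its probes, Bax differed by 0.08 and was not called (adjusted p = 0.796). Casp9 (difference -0.42 ± 0.16, adjusted p = 0.0936), Fas (difference -0.01 ± 0.16, adjusted p = 0.962) and Bcl2 (difference -0.43 ± 0.21, adjusted p = 0.169) did not pass the test. Apaf1, the platform that activates Casp9, was well above background on no mimic array and 1 sham array, with levels of -4.12 and -5.73 in the mimic kidneys, against -5.32 and -4.43 in the sham kidneys. Pro-apoptotic genes called were 2 without sham 1 and 2 without sham 4.

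Of 16 anti-apoptotic genes 3 were called higher and 2 lower (31.2%, against 28% of all genes), with Bcl2a1d at 1.29 ± 0.24 (SE, adjusted p = 0.0111) and Tmbim6, a membrane protein of the endoplasmic reticulum, at -2.35 ± 0.43 (SE, adjusted p = 0.0108), both not called without sham 1 or sham 4 (adjusted p of 0.0502 to 0.0870). Of necroptosis and pyroptosis genes 6 of 14 were called higher and 1 lower. Mlkl, the protein that ruptures the membrane in necroptosis, had levels of -0.48 in mimic 6 and -1.30 in mimic 7, against -4.00 in sham 1 and -4.01 in sham 4, a difference of 3.11 ± 0.39 (SE, adjusted p = 0.00368). Casp4, a sensor of intracellular lipopolysaccharide, had levels of -0.07 and 0.46 in the mimic kidneys, against -1.25 and -1.33 in the sham kidneys (difference 1.48 ± 0.21, adjusted p = 0.00500). Both were called whichever array was left out. In the ferroptosis and iron list 6 of 21 were called higher and 2 lower, among them Tfrc, the transferrin receptor (difference 1.55 ± 0.21, adjusted p = 0.00491), with a 2nd probe at -0.22, and Ptgs2, which makes prostaglandins and was at least 2.09-fold higher (adjusted p = 0.00688). Members called were 1 without sham 1 and 1 without sham 4 in the anti-apoptotic list, and 4 without mimic 6, 2 without sham 1 and 2 without sham 4 in the necroptosis and pyroptosis list. In the ferroptosis and iron list they were 4 without sham 1 and 3 without sham 4.

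Many genes of mitochondrial metabolism were lower. In the respiratory chain and citric acid cycle 0 of 50 members were called higher and 30 lower, with a median of -0.73. Idh2, the NADP-dependent isocitrate dehydrogenase, had levels of 5.26 and 5.49 in the mimic kidneys, against 7.02 and 7.07 in the sham kidneys (difference -1.67 ± 0.16, adjusted p = 0.00171). Sucla2, a subunit of succinyl-CoA synthetase, had levels of 0.63 and 0.61 in the mimic kidneys, against 2.59 and 2.67 in the sham kidneys (difference -2.01 ± 0.18, adjusted p = 0.00151), and Uqcrfs1, the iron-sulfur subunit of complex III, differed by -1.37 ± 0.16 (SE, adjusted p = 0.00281). The mimic kidneys were within 0.23 of each other for these 3 genes. Respiratory chain and citric acid cycle genes called were 12 without sham 1 and 7 without sham 4, and with brightness as a covariate 0 were called at a median of -0.79.

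Of 39 genes of fatty acid oxidation 3 were called higher and 12 lower (median -0.87). Acadm, the medium-chain acyl-CoA dehydrogenase, had levels of 4.89 and 5.21 in the mimic kidneys, against 7.13 and 6.82 in the sham kidneys (difference -1.93 ± 0.25, adjusted p = 0.00436). Echs1, which hydrates enoyl-CoA, had levels of 3.26 in mimic 6 and 2.54 in mimic 7, against 4.75 in sham 1 and 4.88 in sham 4 (difference -1.91 ± 0.25, adjusted p = 0.00426), and the peroxisomal oxidase Acox2 differed by -1.79 ± 0.18 (SE, adjusted p = 0.00208). The median was -0.26 in mimic 6 and -1.07 in mimic 7, and 26 without mimic 6, 7 without sham 1 and 7 without sham 4 were called. In gluconeogenesis, which the proximal tubule shares with the liver, 0 of 10 were called higher and 6 lower. Fbp1, which makes fructose 6-phosphate, had levels of 5.39 in mimic 6 and 3.69 in mimic 7, against 8.02 in sham 1 and 8.12 in sham 4 (difference -3.53 ± 0.49, adjusted p = 0.00500), and Slc37a4, the glucose 6-phosphate transporter, of 3.99 and 4.35 in the mimic kidneys, against 5.79 and 5.99 in the sham kidneys (difference -1.72 ± 0.23, adjusted p = 0.00429). Glycolysis genes were called in both directions, 5 of 20 higher and 4 lower. Hk2, the inducible hexokinase, was at least 10.5-fold higher (adjusted p = 0.00131), Slc16a3, the exporter of lactate, had levels of -0.42 and -0.16 in the mimic kidneys, against -3.08 and -3.16 in the sham kidneys (difference 2.83 ± 0.19, adjusted p = 0.00103), and Eno2 differed by 1.67 ± 0.20 (SE, adjusted p = 0.00323), whereas Pfkm, a phosphofructokinase, differed by -1.19 ± 0.16 (SE, adjusted p = 0.00422). Gluconeogenesis genes called were 5 without sham 1 and 2 without sham 4, and glycolysis genes 14 without mimic 6, 4 without sham 1 and 4 without sham 4.

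Of 30 hypoxia genes 4 were called higher and 6 lower (33.3%, against 28% of all genes, median -0.04), with the glucose transporter Slc2a1 at 0.99 ± 0.16 (SE, adjusted p = 0.00802) and the mitophagy receptor Bnip3 at -1.35 ± 0.22 (SE, adjusted p = 0.00782), neither called without sham 4 (adjusted p = 0.0614 and 0.0691), nor Slc2a1 without sham 1 (adjusted p = 0.0616). Hypoxia genes called were 4 without sham 1 and 2 without sham 4. In cholesterol synthesis 2 of 23 were called higher (8.7%, against 15.2% of all genes) and 7 lower (30.4%, against 12.8%). Idi1, an isomerase of the mevalonate pathway, had levels of 1.45 and 1.89 in the mimic kidneys, against 3.41 and 3.11 in the sham kidneys (difference -1.59 ± 0.22, adjusted p = 0.00505), and Cyp51, the lanosterol demethylase, differed by -1.74 ± 0.30 (SE, adjusted p = 0.00902), not called without sham 1 or sham 4 (adjusted p = 0.0580 and 0.0560). Cholesterol synthesis genes called were 1 without sham 1 and 1 without sham 4. In the lysosome list 1 of 23 was called higher (4.35%, against 15.2% of all genes) and 7 lower (30.4%, against 12.8%). Ctsh, the protease cathepsin H, differed by -1.87 ± 0.27 (SE, adjusted p = 0.00568), although its 4 probes ranged from -1.98 to 0.69. Lysosome genes called were 16 without mimic 6, 2 without sham 1 and 1 without sham 4.

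Complement and acute phase genes were called in both directions, 10 of 23 higher and 5 lower. C5ar1, the receptor for complement fragment C5a, was at least 8.34-fold higher (adjusted p = 0.00266). Hp (haptoglobin), which binds free haemoglobin, had levels of -0.23 and -0.61 in the mimic kidneys, against -3.55 and -2.84 in the sham kidneys (difference 2.77 ± 0.38, adjusted p = 0.00463). Fgb, the fibrinogen beta chain, had levels of 2.40 in mimic 6 and 1.68 in mimic 7, against -2.18 in sham 1 and -1.52 in sham 4, a difference of 3.89 ± 0.63 (SE, adjusted p = 0.00768), and was not called without sham 1 (adjusted p = 0.0502). The list's count was 4 without sham 1 and 3 without sham 4.

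Ribosomal protein genes were higher by a small amount. Of 36 tested, 19 were called higher and 0 lower, with a median of 0.58. The median stayed between 0.30 and 0.66 in every alternative processing tried, but 0 were called with brightness as a covariate. Rpl38 had levels of 8.37 and 8.40 in the mimic kidneys, against 7.46 and 7.43 in the sham kidneys (difference 0.94 ± 0.15, adjusted p = 0.00752). Without sham 1, and without sham 4, 0 of the 36 were called. Of 16 genes that process miRNAs or load them on Argonaute proteins, 2 were called higher and 0 lower, against 28% of all genes. Ago3, an Argonaute, differed by 0.75 ± 0.20 (SE, adjusted p = 0.0325) and Tarbp2, a partner of Dicer, by 0.66 ± 0.17 (SE, adjusted p = 0.0318), and neither was called without sham 1 or sham 4 (adjusted p of 0.0695 to 0.206), nor Ago3 without mimic 7 (0.0852) or Tarbp2 without mimic 6 (0.0598). The list's count was 6 without mimic 6, 0 without sham 1 and 0 without sham 4.

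Circadian clock genes were called in both directions. Of 17 tested, 3 were called higher and 8 lower, and the count was 5 without sham 1 and 1 without sham 4. Arntl (BMAL1), an activator of the clock, had levels of -0.77 and -1.25 in the mimic kidneys, against -3.73 and -5.41 in the sham kidneys (difference 3.56 ± 0.65, adjusted p = 0.0108), well above background on 1 sham array, and Cry1, a repressor expressed late in the cycle, differed by 1.77 ± 0.33 (SE, adjusted p = 0.0118). With the mean over its probes, Cry1 differed by 0.83 and was not called (adjusted p = 0.116). Dbp, an output factor of the clock, had levels of 1.27 in mimic 6 and 3.05 in mimic 7, against 5.30 in sham 1 and 6.14 in sham 4 (difference -3.56 ± 0.65, adjusted p = 0.0111), and Nr1d2 (REV-ERB beta) differed by -1.74 ± 0.26 (SE, adjusted p = 0.00611). Arntl, Dbp and Nr1d2 were not called without sham 4, and Cry1 without sham 1 (adjusted p of 0.0542 to 0.0787). The hour of the day at which kidneys were taken was not given in the sources used here, so its part in these values was not tested.

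Markers of blood and of neighbouring tissues were read to see what else the samples held. All 9 erythroid genes tested had negative differences, 1 of them called (6 without mimic 6), and their summed level was 77.1 in mimic 6 and 15.6 in mimic 7, against 131 and 120 in sham 1 and sham 4. Of the erythroid genes 11.1% were called, against 28% of all genes. The beta globin Hbb-bt had levels of 1.80 in mimic 6 and -1.06 in mimic 7, against 2.83 in sham 1 and 2.69 in sham 4 and missed the threshold (adjusted p = 0.0875). In the urothelial list 2 of 6 members were called higher, both basal keratins. They were Krt5 at 2.51 ± 0.64 (SE, adjusted p = 0.0300) and Krt14 at 3.47 ± 0.82 (SE, adjusted p = 0.0239). Each lost its call when mimic 7, sham 1 or sham 4 was left out, Krt14 also without mimic 6. No probe of Krt14 was well above background on all 8 arrays, so the size of its rise is approximate. Of the uroplakins, Upk1b, Upk2 and Upk3b did not pass the filter. Upk1a was well above background on all 8 arrays and was not called (difference -0.78, adjusted p = 0.280). The summed urothelial level was 11 in mimic 6 and 23.1 in mimic 7, against 14.5 and 14.1 in the sham kidneys.

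In the adipose list 4 of 7 members were called higher, among them Cidec, a protein of lipid droplets (difference 3.80 ± 0.61, adjusted p = 0.00745), and Fabp4 (difference 0.83 ± 0.22, adjusted p = 0.0343), neither called without sham 4 (adjusted p = 0.0574 and 0.107), nor Fabp4 without any other of the 4 arrays (adjusted p of 0.0547 to 0.165). Adipose genes called were 2 without mimic 6 or mimic 7, 1 without sham 1 and 0 without sham 4. The defining fat cell genes Adipoq, Plin1, Cfd and Retn did not pass the filter. The summed level of the members tested was 12.7 and 11.7 in the mimic kidneys, against 5.99 and 7.03 in the sham kidneys. Of 13 hepatocyte genes 1 was called higher and 4 lower, while Apoa1, Ahsg and Cyp7a1 did not pass the filter. Ttr (transthyretin) differed by -2.79 ± 0.33 (SE, adjusted p = 0.00306) and Rbp4, the carrier of retinol, by 4.09 ± 0.87 (SE, adjusted p = 0.0175). Rbp4 had levels of -1.10 and -0.62 in the mimic kidneys, against -6.41 in sham 1 and -3.48 in sham 4, and only 1 of the sham arrays was well above background. Its difference was 2.63 without sham 1 and 5.55 without sham 4, and it was not called without mimic 7 (adjusted p = 0.0657), while hepatocyte genes called were 3 without sham 1 and 2 without sham 4. Of 6 adrenal cortex genes 1 was called in each direction, and Cyp11a1, Cyp11b1 and Cyp11b2 did not pass the filter. By limma 0 of 8 skeletal muscle genes were called, and Ckm, Myh1 and Myh2 did not pass the filter.

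**Figure D4:**
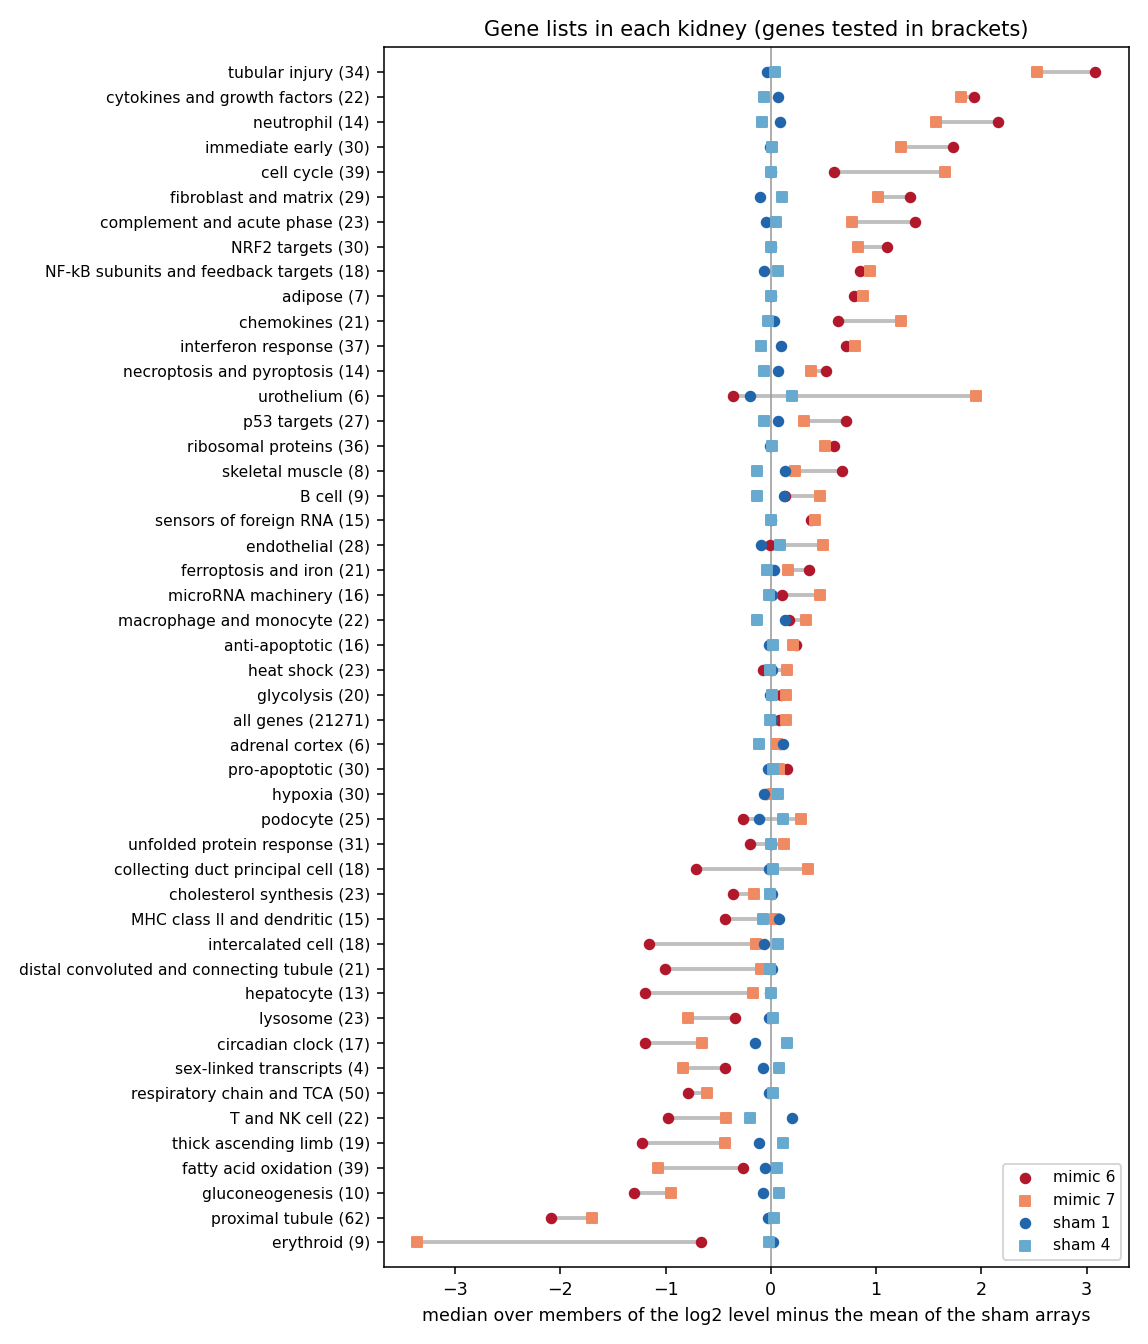
For each gene list (number tested in brackets) the points give the median over its members of the log2 level minus the mean of the sham arrays, in mimic 6 and mimic 7 (red tones) and sham 1 and sham 4 (blue tones), and the grey bar joins the mimic mice. Tubular injury lies at 3.08 and 2.53 in the mimic mice, proximal tubule at -2.09 and -1.70, and the mimic mice lie farthest apart for erythroid (-0.66 and -3.36) and urothelial genes (-0.36 and 1.95).

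The mimic mice differed in the size of the change. Of the 5963 called genes, 2636 were at least 2-fold from the sham mean in both mimic mice, 644 in mimic 6 alone and 1075 in mimic 7 alone. The median size over called genes was 1.07 in mimic 6 and 1.17 in mimic 7. The genes farthest apart are given as values, with no test between mice. Chil3, a chitinase-like lectin of macrophages and neutrophils, had levels of 2.39 in mimic 6 and -1.68 in mimic 7, against -4.14 in sham 1 and -3.79 in sham 4. For Chil3, mimic 6 was the farther from the sham kidneys, and mimic 7 lay between. For Acot1, an acyl-CoA thioesterase, levels were 4.74 in mimic 6 and 1.26 in mimic 7, against 4.24 in sham 1 and 4.29 in sham 4, and for Ptgfr, the prostaglandin F receptor, -0.68 in mimic 6 and -3.53 in mimic 7, against -0.72 in sham 1 and -0.42 in sham 4, so for these mimic 6 was near the sham kidneys and mimic 7 below them.

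Other genes were higher in mimic 7 than in mimic 6. Gsdmc3, a gasdermin, had levels of -3.88 in mimic 6 and 0.91 in mimic 7, against -2.16 in sham 1 and -1.60 in sham 4. Sec14l3, a lipid-binding protein, had levels of -3.64 in mimic 6 and -0.81 in mimic 7, against 1.44 in sham 1 and 0.91 in sham 4. Lypd2 had levels of -2.81 in mimic 6 and 0.44 in mimic 7, against -0.02 in sham 1 and -0.49 in sham 4, and for H2ac13, a replication-dependent histone, they were -2.39 in mimic 6 and 0.30 in mimic 7, against -3.04 in sham 1 and -3.57 in sham 4. Krt15, a keratin of basal epithelium, had levels of -3.81 in mimic 6 and -1.03 in mimic 7, against -3.76 in sham 1 and -3.36 in sham 4. For Krt15 mimic 6 was near the sham kidneys, for H2ac13 it lay 0.92 above their mean, and for Sec14l3 and Lypd2 mimic 7 was the closer.

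**Figure D5:**
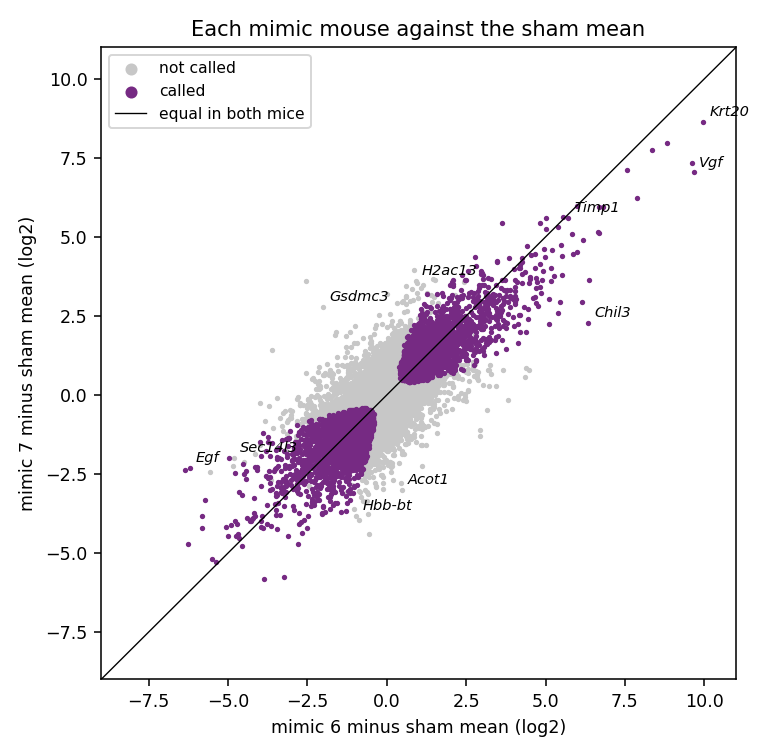
Each point is a gene, with the log2 level of mimic 6 minus the sham mean on the x axis and that of mimic 7 minus the sham mean on the y axis, purple where mimic against sham was called. Both axes use the same sham mean. Egf and Chil3 lie farther from 0 in mimic 6, and Hbb-bt and Acot1 are lower in mimic 7.

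The mimic kidneys were also set against the other injured kidneys. IRI mice had no injection, so the mimic and its carrier cannot be told apart against them, whereas control-miRNA mice received the same carrier. Since these comparisons share the sham arrays, each is given by its own values, and the difference was tested directly. IRI against sham had 3892 genes called (18.3%), 9.44% higher and 8.85% lower, and control miRNA against sham 3687 (17.3%), 9.53% higher and 7.80% lower. Between mimic and IRI kidneys 3412 genes were called (16%), with a smallest adjusted p of 0.0387, and 8462 had an unadjusted p under 0.05. Of the calls 65.6% were higher in mimic kidneys, against 16.1% of 6677 calls with median scaling, which moved the median over all genes to -0.35 in place of 0.10. The count was 7525 without mimic 6, 0 without mimic 7 and 0 with brightness as a covariate. Between mimic and control-miRNA kidneys limma called 0 genes (smallest adjusted p = 0.0663), 7189 had an unadjusted p under 0.05, and 6313 were called without mimic 6.

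Fibroblast and matrix genes had 13 of 29 members called higher in mimic than in IRI kidneys and 0 lower, and endothelial genes 12 of 28 and 0. Of all 21271 genes 16% were called in either direction, 2237 higher and 1175 lower. The median of the matrix list against sham was 1.23 in mimic, 0.20 in IRI and 0.73 in control-miRNA kidneys, and that of the endothelial list 0.27, -0.50 and -0.53. Tnc had levels of -0.31 and -0.94 in mimic, -2.30 and -2.18 in IRI and -2.45 and -2.54 in control-miRNA kidneys, a difference of mimic minus IRI of 1.62 ± 0.32 (adjusted p = 0.0387). Col1a1 had levels of 3.25 and 4.11 in mimic, 1.94 and 1.02 in IRI and 2.91 and 2.65 in control-miRNA kidneys, a difference of mimic minus IRI of 2.20 ± 0.38 (adjusted p = 0.0387). Cyp2e1 was lower in mimic than in IRI kidneys, with levels of 2.23 and 2.36 in mimic, 3.85 and 4.33 in IRI and 4.27 and 4.73 in control-miRNA kidneys. Fgb was also lower in mimic than in IRI kidneys, at 2.40 and 1.68 in mimic, 5.39 and 5.31 in IRI and 2.83 and 4.87 in control-miRNA kidneys (difference of mimic minus IRI -3.31 ± 0.63, adjusted p = 0.0387). These 4 genes were not called between mimic and IRI kidneys without mimic 7, when 0 genes were.

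Interferon response genes had 9 of 37 members called higher in mimic than in IRI kidneys and 0 lower, and medians against sham of 0.77 in mimic, 0.37 in IRI and 0.20 in control-miRNA kidneys. Ifitm3 had levels of 3.94 and 3.73 in mimic, 2.83 and 3.03 in IRI and 2.95 and 2.82 in control-miRNA kidneys. Respiratory chain and citric acid cycle genes had 10 of 50 called lower and 0 higher than in IRI kidneys, and fatty acid oxidation genes 7 of 39 lower and 0 higher. These shares, each in 1 direction only, were 24.3% higher for interferon response genes. They were 20% lower for respiratory chain and citric acid cycle genes and 18% lower for fatty acid oxidation genes. Over all 21271 genes 16% were called between mimic and IRI kidneys in either direction, 2237 higher and 1175 lower. For tubular injury genes the median against sham was 2.83 in mimic, 3.24 in IRI and 3.27 in control-miRNA kidneys, with 1 of 34 called higher and 4 lower than in IRI kidneys. For proximal tubule genes it was -1.94, -1.66 and -1.57, with 2 of 62 called higher and 9 lower than in IRI kidneys. The shares called against IRI in either direction, 14.7% of tubular injury and 17.7% of proximal tubule genes, were near the 16% of all genes. By direction they differed in this scaling. Both lists had more members called lower than higher, whereas all genes had more called higher (2237) than lower (1175). In limma the 5 genes with the smallest p in mimic against IRI had an adjusted p of 0.0387 each. Higher among them were 5430420F09Rik, LOC552901 and 5031434C07Rik, by 2.30 ± 0.18, 2.05 ± 0.18 and 1.72 ± 0.15. No probe of 5430420F09Rik was well above background on all 8 arrays. The others were Capn6 and Iyd, both well above background on no mimic array. Capn6, a calpain without protease activity, had levels of -5.94 and -6.10 in mimic, -3.61 and -3.59 in IRI and -3.45 and -3.87 in control-miRNA kidneys, and was at least 1.49-fold lower than in sham kidneys (adjusted p = 0.00138), a call lost after normexp correction (adjusted p = 0.659). Iyd, which recovers iodide from iodotyrosines, had levels of -4.72 and -4.52 in mimic, -2.69 and -2.83 in IRI and -3.54 and -3.44 in control-miRNA kidneys, and was at least 3.93-fold lower than in sham kidneys (adjusted p = 0.000869).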

How the data were processed

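RNA from the left kidney of 8 mice was measured on single-colour Agilent arrays on 1 slide with 1 scan time. Per the file headers, the deposited intensity is the background-subtracted processed signal of Agilent Feature Extraction 12.0.3.1. A series table deposited by the authors holds a ratio of each value to its probe's median over arrays, as a comparison with the array files showed, and served as an alternative. From these, each array's processed signal was divided by its 75th percentile and taken to log2, without control spots and the 79 to 127 outlier spots per array. No spot was saturated. Of 56605 probes, 32216 passed the filter, which asked for a signal well above background in both mice of 1 or more groups, and the brightest probe stood for a gene. Names came from accessions or symbols in RefSeq for 34615 and 9170 probes, from older symbols for 283, and from the files for 12537. Probe positions are those of the files (mm9).

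The 21271 genes were tested with limma 3.58.1 in R 4.3.3 (6.84 degrees of freedom after moderation), and ± gives the standard error of the fit. The labels name separate mice; with 2 per group, their number limits the precision. The fit was tested on simulated data with known changes. The genes described were the 12 strongest rises and 12 strongest falls with a call and no overlap between the arrays (without clone and predicted names), up to 4 members per list by smallest p, a set of injury, death and immune genes given by symbol, the 5 smallest p against IRI and against control miRNA, and the genes farthest apart between the mimic mice. Some genes that these rules would name are not reported here. List members named only as called whichever array was left out, or as not passing the filter, were chosen after their values were seen. The members and lists were chosen with earlier results of these data known. Alternatives were other background corrections, scalings, filters, probe rules, covariates, array weights, the deposited ratios and leaving out arrays.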

Additional observations from a re-analysis of the deposited data

How the results depend on the processing

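The cause of each change below was not tested. The count of genes called between mimic and sham kidneys, 5963 with 3234 higher and 2729 lower, was 3035 (1643 higher, 1392 lower) in a fit of these 4 arrays alone, 3475 (1690 and 1785) with 1 weight per group, 3859 (2134 and 1725) of 36833 genes with no filter on dim probes, and 112 (72 and 40) with brightness as a covariate. It was 8097 (5123 and 2974) after normexp background correction and 5964 (1772 and 4192) with median scaling. Under quantile normalization, the deposited ratios, the stricter filter, the mean over probes and a slide column term it was 6023, 6012, 5840, 5872 and 5044. The slide row could not be fitted for mimic against sham or for mimic against IRI. The slide column term differed only between the 2 arrays within each group. Columns 1 and 2 held the mimic arrays, while columns 3 and 4 held both groups of other injured kidneys. Column and group therefore cannot be told apart where mimic kidneys are set against these, and the term did not adjust for it. Leaving out 1 array gave 1098 to 7337 calls, 598 to 3905 higher and 500 to 3432 lower. Between mimic and IRI kidneys, 3412 became 10347 after normexp correction, 6677 with median scaling and 11950 with no filter. It became 0 with group weights, brightness or the slide column term, and 0 to 7525 when 1 mimic array was left out. Quantile normalization gave 2291 and the deposited ratios 2296. Between mimic and control-miRNA kidneys, 0 became 5835 after normexp correction, 1495 with the stricter filter, 1 with the slide column term, and 0 to 6313 without 1 mimic array. Among genes called in the fit of all arrays or in the alternative, signs turned for Cd5 (0.11) and Apaf1 (0.45, adjusted p = 0.0408) after normexp correction, for Cd22 (-0.0443) with brightness, and for Kdm5d (0.0216) with the mean over probes, and for no other named gene. Signs also turned for 13 named genes that were called in neither, such as Umod with brightness (0.25). No paired analysis was possible because the mimic mice (6 and 7) and the sham mice (1 and 4) share no number. Genes well above background on no array of a group have only a bound there.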
